A study of Mus musculus with 6 samples.

Results

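A set of 10 genes, most with known roles in the nervous system, the germ line or organ development, was followed through mouse leukaemia cells that differed in Gata2 genotype. They were 10 of the 49585 genes in the deposited count table. They were chosen by their levels in these same libraries, as genes without overlap between the genotypes, so their genotype differences are a description, with no test. The genes are Nkx6-2, Rnf17, Rtn4rl2, Skida1, Eya4, Dmrtb1, Gm10451, Eid2, Ptger3 and Nebl. On the scale used here 8 of the 10 met that rule, and Dmrtb1 and Nebl did not.

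The libraries came from poly(A) RNA of leukaemia cells of bone marrow, labelled MA9, which commonly stands for the fusion MLL-AF9. The Gata2 KO cells (genotype Gata2 -/-, described as Cre) numbered 3 samples, and the Gata2 f/f cells, which carry loxP-flanked Gata2 alleles, also numbered 3. Since the deletion comes with Cre in every labelled sample, effects of either cannot be told apart. All 6 samples had been exposed for 18 h to 5 uM Nutlin, an MDM2 inhibitor that raises p53, in medium with IL-3, IL-6 and SCF. No sample without Nutlin was among them. The labels do not say which Cre was used, nor whether the samples of a genotype were separate leukaemias.

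Many developmental regulators, among them some homeobox and eyes absent genes, are silent in blood cells, with CpG-rich promoters held by Polycomb or other repressive chromatin. Others are expressed. Here the homeobox gene Hoxa9 had means of 212 CPM in Gata2 KO and 173 CPM in Gata2 f/f, and Eya1 had 44.2 and 49.4 CPM. Germline genes such as those of the piRNA pathway are likewise kept off in most somatic cells, often by DNA methylation. Gata2 is a DNA-binding regulator of haematopoietic stem and progenitor cells that recognises GATA motifs.

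Total counts ran from 18651102 to 26440960 in Gata2 KO libraries and from 17138687 to 25158033 in Gata2 f/f libraries. Levels below are CPM, read counts divided by the TMM-scaled library size in megareads, and 1 read corresponds to 0.0398 to 0.0570 CPM. For the deleted gene, Gata2, KO 1 had 5.44 CPM, the library labelled KO 2 had 43.3 CPM and KO 3 had 4.33 CPM, while f/f 1, 2 and 3 had 33.6, 22.3 and 18.4 CPM (log2 fold change -0.49 ± 0.86, edgeR adjusted p = 1.00). The Gata2 level of KO 2 is thus contrary to its label. Group means and SDs count it as Gata2 KO, and fold changes of the 10 genes are also given without it. Replicate numbers also differed: 1249 of 13744 tested genes (9.09%) passed a test over all 3 numbers (edgeR, quasi-likelihood F test, adjusted p under 0.05). That test does not say which number stood apart. The 8 leukaemia and myeloid progenitor markers were all expressed, summing to 1322 to 2530 CPM in Gata2 KO and 1351 to 1446 CPM in Gata2 f/f. Of 10 neuron and glia markers 7 stayed under 1 CPM in every library, and of 10 germ cell markers 9 did, with 4 at 0 everywhere. The neuron and glia markers summed to 32.2 to 40.8 CPM in Gata2 KO and 36.0 to 50.9 CPM in Gata2 f/f. Most of that was Mbp, at 27.9 to 37.3 CPM in Gata2 KO and 32.8 to 45.3 CPM in Gata2 f/f. The germ cell markers summed to 0.0955 to 1.25 CPM in Gata2 KO and 0.398 to 2.99 CPM in Gata2 f/f. Whether other cells contributed to the genes described below was not tested. In bulk RNA, more cells that express a gene and more RNA per cell cannot be told apart.

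**Figure D1:**
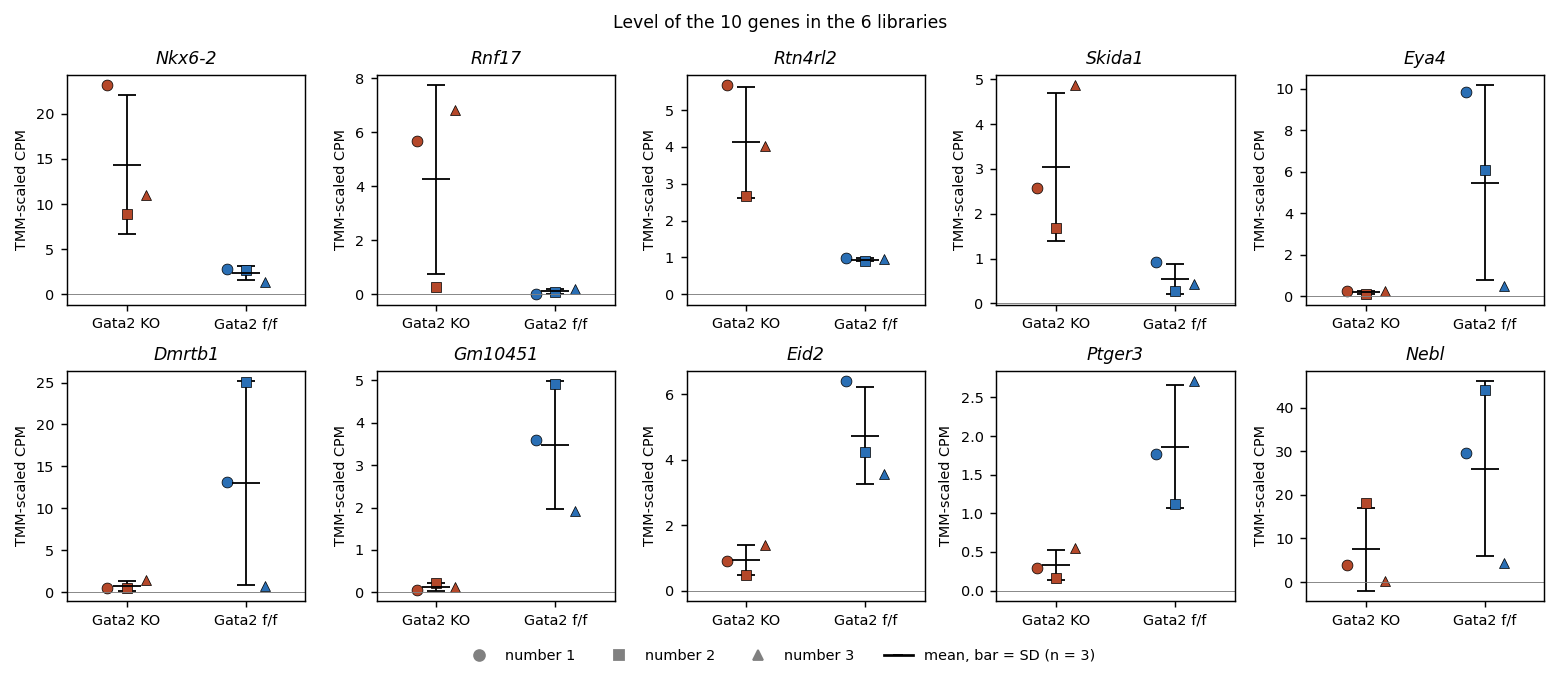
Level of each of the 10 genes in TMM-scaled CPM (linear axes that differ between genes), with the 3 Gata2 KO libraries left and the 3 Gata2 f/f libraries right. Points are libraries, marked by replicate number, and bars are mean and SD (n = 3). Nkx6-2, Rnf17, Rtn4rl2 and Skida1 lie higher in Gata2 KO and the other 6 lower, with overlap of the groups for Dmrtb1 and Nebl.

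Across all 13744 genes that passed the filter on low counts, 745 (5.42%) had groups that did not overlap, 363 (2.64%) higher and 382 (2.78%) lower in Gata2 KO. With counts divided by the library total in place of the TMM-scaled size, the split was 261 higher and 498 lower. The filter kept 9 of the 10 genes, all but Rnf17. Of the 9, 7 had groups that did not overlap, which is what chose them. The gap, the ratio of the nearest libraries of the groups, had a median of 1.07 over the 745 genes and was over 2 for 11 of them, 6 of which belong to the set. No gene passed edgeR's quasi-likelihood test between the genotypes (0 of 13744, 0%), and none of the 9 did. At an unadjusted p under 0.05 edgeR had 171 genes. DESeq2 called 7 of 13658 genes (0.0513%) and had 213 at an unadjusted p under 0.05, and limma voom called 0 and had 170. Of the 7, 6 are of the set (Nkx6-2, Rtn4rl2, Eya4, Dmrtb1, Gm10451 and Eid2). With the replicate number as a block edgeR called 0 and DESeq2 called 222 of 12678 genes (1.75%), 180 higher and 42 lower, and 8 of the 9 tested genes of the set were among the 222, Dmrtb1 being the exception. Since this contrast chose the genes, nothing is read from these counts.

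Nkx6-2 encodes a homeodomain transcription factor of the ventral neural tube and of oligodendrocytes. It had 486, 164 and 262 reads in KO 1, the library labelled KO 2 and KO 3, against 49, 61 and 35 reads in f/f 1, 2 and 3. The corresponding levels were 23.2, 8.90 and 11.0 CPM in Gata2 KO and 2.79, 2.72 and 1.39 CPM in Gata2 f/f. Every Gata2 KO library was above every Gata2 f/f library, with a gap of 3.19-fold between the nearest pair, KO 2 and f/f 1. The means were 14.4 ± 7.73 CPM in Gata2 KO and 2.30 ± 0.788 CPM in Gata2 f/f (SD, n = 3 each). Fitted by edgeR, the log2 fold change with its SE was 2.64 ± 0.49, and 2.89 without KO 2.

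Rtn4rl2 encodes a lipid-anchored, leucine-rich repeat receptor of neurons related to the Nogo receptor. It was at 5.68, 2.66 and 4.03 CPM in KO 1, the library labelled KO 2 and KO 3 (119, 49 and 96 reads) and at 0.970, 0.892 and 0.956 CPM in f/f 1, 2 and 3 (17, 20 and 24 reads). The Gata2 f/f libraries were almost level, and KO 2 was the lowest of the Gata2 KO libraries, 2.74-fold above the nearest Gata2 f/f library. In edgeR the log2 fold change was 2.13 ± 0.42, and 2.36 without KO 2.

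Skida1 encodes a protein with a SKI/DACH domain, a fold shared with transcriptional co-repressors. It had 2.58, 1.68 and 4.87 CPM in KO 1, the library labelled KO 2 and KO 3 (54, 31 and 116 reads) and 0.913, 0.268 and 0.438 CPM in f/f 1, 2 and 3 (16, 6 and 11 reads). The groups were apart, KO 2 again being the Gata2 KO library nearest to Gata2 f/f. The 95% exact Poisson intervals of KO 2 (1.14 to 2.39 CPM) and f/f 1 (0.522 to 1.48 CPM) overlapped, which is no test of that gap. Such intervals cover counting error only, since the reads carry no molecular identifiers. Its log2 fold change was 2.51 ± 0.63, and 2.79 without KO 2.

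Rnf17 encodes a RING finger and Tudor domain protein of male germ cells that is needed for sperm formation. It had 119, 5 and 162 reads in KO 1, the library labelled KO 2 and KO 3, against 0, 2 and 5 reads in f/f 1, 2 and 3, which is 5.68, 0.271 and 6.81 CPM in Gata2 KO and 0, 0.0892 and 0.199 CPM in Gata2 f/f. The gene was thus high in 2 libraries only, KO 1 and KO 3, the 2 Gata2 KO libraries with low Gata2, and the library labelled KO 2 lay near f/f 2 and 3. Read for read KO 2 and f/f 3 were tied at 5, and the separation at the edge of the rule (a gap of 1.36-fold) came from their library sizes. Their Poisson intervals were 0.0881 to 0.633 CPM in KO 2 and 0.0647 to 0.465 CPM in f/f 3. For f/f 1, with 0 reads, the interval reached 0.210 CPM. Without the filter, which Rnf17 did not pass, its log2 fold change was 5.21, and 5.84 without KO 2, where it passed the filter.

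Of the 6 lower genes, 4 had groups that did not overlap. Gm10451, a long intergenic non-coding RNA gene, had the widest gap of the set. It had 1, 4 and 3 reads in KO 1, the library labelled KO 2 and KO 3 and 63, 110 and 48 reads in f/f 1, 2 and 3. The levels were 0.0478, 0.217 and 0.126 CPM in Gata2 KO and 3.59, 4.91 and 1.91 CPM in Gata2 f/f, so that the highest Gata2 KO library (KO 2) was 8.81-fold below the lowest Gata2 f/f library. Its log2 fold change was -4.70 ± 0.66, and -5.21 without KO 2.

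Eid2 encodes an inhibitor of differentiation that binds the acetyltransferase EP300. It was at 0.907, 0.489 and 1.39 CPM in KO 1, the library labelled KO 2 and KO 3 (19, 9 and 33 reads) and at 6.39, 4.24 and 3.54 CPM in f/f 1, 2 and 3 (112, 95 and 89 reads). All Gata2 KO libraries were below all Gata2 f/f libraries, and KO 2 was the lowest of the 6. On the log2 scale the fold change was -2.33 ± 0.50, and -2.04 without KO 2. Eid2b, its paralogue 8.47 kb away, was at 4.16 ± 0.903 CPM in Gata2 KO and 3.29 ± 0.587 CPM in Gata2 f/f (log2 fold change 0.34 ± 0.35, edgeR adjusted p = 1.00).

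Ptger3 encodes EP3, a receptor for prostaglandin E2. It had 0.287, 0.163 and 0.546 CPM in KO 1, the library labelled KO 2 and KO 3 (6, 3 and 13 reads) and 1.77, 1.11 and 2.71 CPM in f/f 1, 2 and 3 (31, 25 and 68 reads). KO 2 was again the lowest library, and the gap lay between KO 3 and f/f 2, whose Poisson intervals overlapped (0.291 to 0.934 CPM and 0.722 to 1.65 CPM). The log2 fold change was -2.45 ± 0.60, and -2.15 without KO 2.

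Eya4 encodes an eyes absent protein, a phosphatase and transcriptional co-activator known from the inner ear and heart. It had 5, 2 and 6 reads in KO 1, the library labelled KO 2 and KO 3, against 173, 136 and 13 reads in f/f 1, 2 and 3. The levels were 0.239, 0.109 and 0.252 CPM in Gata2 KO and 9.87, 6.07 and 0.518 CPM in Gata2 f/f. Gata2 f/f 1 and 2 were high, while f/f 3 was near the Gata2 KO libraries, and its Poisson interval (0.276 to 0.885 CPM) overlapped that of KO 3 (0.0925 to 0.549 CPM). The log2 fold change was -4.72 ± 1.07 (-4.45 without KO 2), with f/f 1 and f/f 2 as its high libraries. Over the 8 genes whose groups did not overlap, the intervals of the nearest libraries overlapped for 4 (Rnf17, Eya4, Skida1 and Ptger3) and were apart for the other 4.

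Dmrtb1 and Nebl failed the rule. Dmrtb1, also called Dmrt6, encodes a DM-domain transcription factor of male germ cells. It had 0.430, 0.434 and 1.43 CPM in KO 1, the library labelled KO 2 and KO 3 (9, 8 and 34 reads) and 13.1, 25.1 and 0.717 CPM in f/f 1, 2 and 3 (230, 562 and 18 reads). Gata2 f/f 3 lay inside the Gata2 KO range, below KO 3. The log2 fold change was -4.06 ± 1.19 (-3.80 without KO 2), and the groups were apart without f/f 3 or without KO 3. Nebl encodes nebulette, an actin-binding protein of the cardiac Z-disc, and a shorter LIM-domain product. It had 3.92, 18.1 and 0.336 CPM in KO 1, the library labelled KO 2 and KO 3 (82, 334 and 8 reads) and 29.7, 44.0 and 4.42 CPM in f/f 1, 2 and 3 (520, 986 and 111 reads). KO 2 was above f/f 3. For Nebl the log2 fold change was -1.81 ± 1.26 with all libraries and -3.62 without KO 2. Its groups were apart without KO 2 or without f/f 3. Summed levels of 10 muscle markers were 91.3 to 120 CPM in Gata2 KO and 66.5 to 93.7 CPM in Gata2 f/f, higher on the whole where Nebl was lower, and their part in its levels was not tested.

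Per kilobase of annotated exon, levels can be compared between genes. Mean levels per kilobase in Gata2 KO were highest for Nkx6-2 (7.54 CPM per kb) and Rtn4rl2 (2.74 CPM per kb), and those of the other 8 genes ran from 0.0212 CPM per kb for Eya4 to 0.682 CPM per kb for Rnf17. In Gata2 f/f the highest were Dmrtb1 (6.22 CPM per kb) and Eid2 (3.39 CPM per kb), and Rnf17 was lowest (0.0154 CPM per kb). Averaged over all 6 libraries, the genes stood between the 4.43th percentile (Ptger3) and the 46.5th percentile (Nkx6-2) of tested genes on this scale. Of the 60 values of the set, 17 were of under 10 reads, 16 of them in the genotype where the gene was lower.

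The library labelled Gata2 KO 2 was placed for each gene on a scale of log2 CPM on which 0 is the mean of Gata2 f/f and 1 the mean of KO 1 and KO 3. Its place was 0.70 for Nkx6-2, 0.63 for Rtn4rl2, 0.61 for Skida1 and 0.21 for Rnf17, the 4 genes higher in Gata2 KO. For the lower genes it was 0.81 for Gm10451, 1.23 for Eya4, 1.27 for Dmrtb1, 1.50 for Ptger3 and 1.55 for Eid2, and -0.0028 for Nebl. The place depends on the scale. On linear CPM it was 0.45 for Nkx6-2, 0.44 for Rtn4rl2, 0.36 for Skida1 and 0.029 for Rnf17. Nebl was then at 0.33, and the other lower genes ran from 0.96 for Gm10451 to 1.18 for Eid2. KO 2 thus lay nearest to Gata2 f/f among the Gata2 KO libraries for all 4 higher genes and for Gm10451 and Nebl, and beyond KO 1 and KO 3 for Eya4, Eid2 and Ptger3. For Dmrtb1 it was level with KO 1. The Poisson interval of KO 2 overlapped that of another Gata2 KO library for every gene but Rnf17 and Nebl. Such overlap with another library is no test of a difference and does not settle a rank, so the rank of KO 2 was not tested. For Gata2 itself the place was -0.37. Among the 738 other tested genes with groups apart, the median place was 0.62, and KO 2 was the Gata2 KO library nearest to Gata2 f/f for 52.6% of them. For every gene with groups apart, in the set or not, a place above 0 was fixed by the choice of genes. Only Dmrtb1 and Nebl were free of this, so nothing is read from the sign of the place. KO 2 was the lowest Gata2 KO library for 7 of the 10 genes, a count for which no share over all genes was taken. For the 4 higher genes lowest means nearest to Gata2 f/f, and for the 3 lower ones it means farthest.

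**Figure D2:**
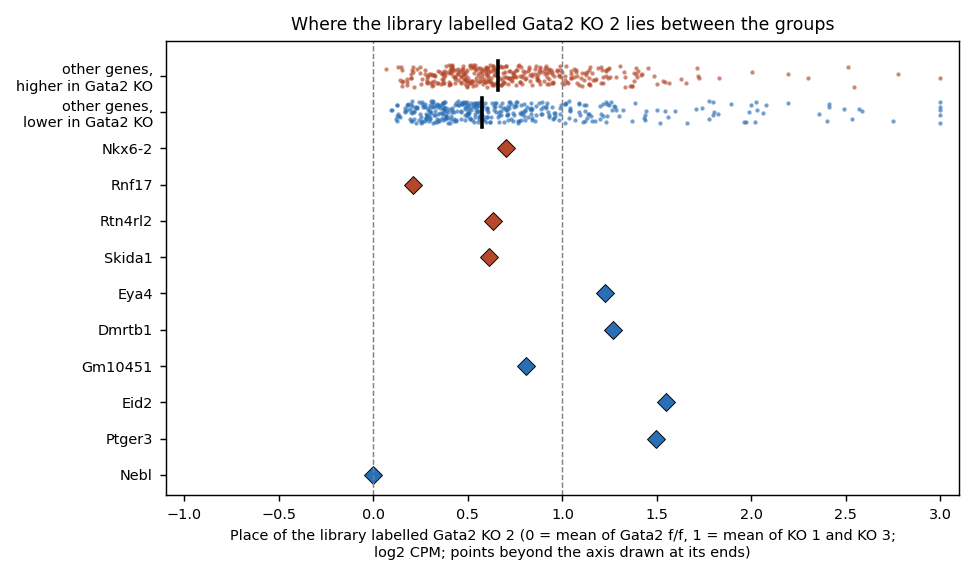
Place of the library labelled Gata2 KO 2 for each of the 10 genes (diamonds) and for the 738 other tested genes with groups that did not overlap (dots, with medians as bars; points beyond the axis are drawn at its end), in log2 CPM relative to the mean of Gata2 f/f (0) and the mean of KO 1 and KO 3 (1). Rnf17 (0.21) and Nebl (-0.0028) lie nearest to Gata2 f/f, while Eid2 (1.55) and Ptger3 (1.50) lie beyond the other Gata2 KO libraries. For genes with groups apart, which leaves out Dmrtb1 and Nebl, a place above 0 was fixed by the choice of genes.

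Between libraries of the same number the difference had the same sign in all 3 numbers for 9 of the 10 genes. For the 8 genes whose groups did not overlap, this sign was fixed by the choice of genes. Only Dmrtb1 and Nebl were free to vary in sign, so nothing is read from the count. The exception was Dmrtb1, with log2 differences, Gata2 KO minus Gata2 f/f, of -4.66, -5.57 and 0.91 in numbers 1, 2 and 3. Eya4 had -4.91, -4.93 and -0.82. Ptger3 differed least between numbers (-2.29, -2.24 and -2.13). These values used a prior count of 2, which pulls in the differences of genes with few reads.

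**Figure D3:**
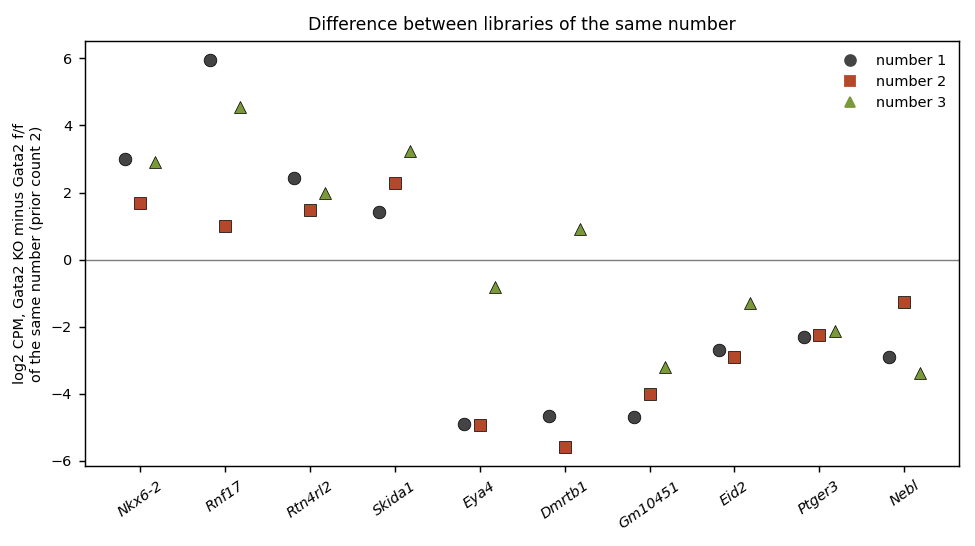
Difference in log2 CPM (prior count 2) between the Gata2 KO and the Gata2 f/f library of the same replicate number for each of the 10 genes, with number 1 as circles, 2 as squares and 3 as triangles. For each gene all points lie on 1 side of 0, except the value of 0.91 for Dmrtb1 in number 3. Where groups did not overlap, which holds for all but Dmrtb1 and Nebl, this was fixed by the choice of genes.

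The comparison between replicate numbers was not the contrast that chose the genes, although a small spread within groups favours groups that do not overlap. Of the 9 tested genes, 1 passed the test (Nebl), against 9.09% of all tested genes. Nebl was at 0.336 and 4.42 CPM in KO 3 and f/f 3, against 3.92 to 44.0 CPM in the 4 libraries numbered 1 and 2. The log2 difference of number 3 from the mean of numbers 1 and 2, with genotype in the model, was -3.61 ± 0.54 (edgeR F test over numbers, adjusted p = 0.0214). Without KO 3 the call was lost (adjusted p = 0.0706) and Eya4 and Dmrtb1 were called instead, and Rnf17 entered and was called without f/f 1 or without f/f 2. The other 8 had adjusted p from 0.201 for Ptger3 to 0.770 for Dmrtb1. Eya4 (-2.28 ± 1.10) and Dmrtb1 (-1.05 ± 1.55) also had lower values in number 3 and did not pass. In Gata2 f/f, library 3 was the lowest for 5 of the 6 genes that were lower in Gata2 KO, all but Ptger3.

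The genes are spread over 7 chromosomes. Coordinates are those of GENCODE M21 on GRCm38, the assembly of the mm10 build named in the submitters' processing notes. Nebl (chr2:17343909-17731464, minus strand), Skida1 (chr2:18040676-18049051, minus) and Rtn4rl2 (chr2:84871924-84886710, minus) share chromosome 2, with Nebl and Skida1 close together but opposite in direction. Eid2 (chr7:28267881-28269272, plus) is a gene of a single exon, and Nkx6-2 (chr7:139579376-139582797, minus) is on the same chromosome. The others are Rnf17 (chr14:56402581-56525032, plus), Eya4 (chr10:23102963-23350786, minus), Dmrtb1 (chr4:107676290-107684230, minus), Gm10451 (chr12:76444497-76451336, plus) and Ptger3 (chr3:157566892-157645888, plus). All but Gm10451 are protein-coding.

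Within 100 kb of the 10 genes the table holds 62 other genes, of which 26, beside 8 of the 10, passed the filter. None passed edgeR's test (0 of 26, against 0% of all genes), and the median log2 fold change was 0.19, against 0.02 over all tested genes. Groups did not overlap for 1 of the 26, Inpp5a, against 5.42% of all genes. Inpp5a, an inositol phosphatase gene, runs toward Nkx6-2 and overlaps its last 277 bases. It was at 20.3, 16.9 and 25.0 CPM in Gata2 KO and at 15.1, 15.3 and 16.8 CPM in Gata2 f/f (log2 fold change 0.40 ± 0.25, adjusted p = 1.00). Whether counting used strand is not given, so reads in that overlap cannot be assigned. Cfap46, 18.2 kb from Nkx6-2 and below the filter, had 10, 3 and 8 reads in Gata2 KO and 0 in every Gata2 f/f library. It was singled out after its values were seen.

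Beside Skida1 lie A930004D18Rik, 2.94 kb away, and Mllt10, 6.19 kb away, which encodes a fusion partner of MLL in other leukaemias. A930004D18Rik was at 1.34, 2.71 and 3.03 CPM in Gata2 KO and at 0.855, 1.43 and 0.558 CPM in Gata2 f/f. Its groups overlapped narrowly, and the log2 fold change of 1.31 ± 0.53 did not pass (edgeR, unadjusted p = 0.0397, adjusted p = 1.00). Mllt10 had 45.4, 43.3 and 13.3 CPM in Gata2 KO and 48.7, 45.5 and 35.6 CPM in Gata2 f/f (-0.35 ± 0.45). Near Rtn4rl2, the eosinophil granule gene Prg2 was at 14.5 CPM in the library labelled KO 2, at 0.191 and 0.126 CPM in KO 1 and KO 3 and at 1.03 to 1.20 CPM in Gata2 f/f. Its log2 fold change of 2.17 ± 1.55 turned to -2.75 without KO 2, which alone was high. The amino acid transporter gene Slc43a1, the nearest tested neighbour of Rtn4rl2, had a log2 fold change of -0.17 ± 0.50. Cenpj beside Rnf17 had 0.14 ± 0.39, Hspa2 near Gm10451 0.51 ± 0.39 and Zranb2 near Ptger3 -0.37 ± 0.34. Dyrk1b, a kinase gene near Eid2, had 0.85 ± 0.69, and Ube2l6 near Rtn4rl2 had 0.87 ± 0.92. The other tested neighbours lay between -0.48 and 0.70. Without KO 2 none of the 26 passed either, and the median was 0.19.

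Relatives and partners of the 9 protein-coding genes were taken from lists of 103 genes, of which 52 passed the filter and 22 had no read in any library. None of the 52 passed edgeR's test, and 4 (7.69%) had groups that did not overlap, against 5.42% of all genes, among them Rtn2, Ptges2 and Nrap. Of the 52, 33 had positive log2 fold changes, with a median of 0.12, and the largest absolute value was 1.58. Absolute values were 2.13 to 4.72 for 8 of the 9 tested genes of the set and 1.81 for Nebl. The set was chosen on this contrast and the relatives were not, so nothing is read from that difference in size. Without KO 2 none of the 52 passed either, 32 were positive, the median was 0.19 against 0.03 over all genes, and 5 changed sign. The value of Ddx4 was then -4.01, against -1.58 with all libraries.

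The neural tube relatives of Nkx6-2 were almost absent. Of 10 genes, among them Nkx6-1, Olig2 and Dbx1, only the neural crest factor Sox10 passed the filter (1.18 ± 0.943 CPM in Gata2 KO and 1.10 ± 0.575 CPM in Gata2 f/f), and 5 had no read. Of 20 Tudor and piRNA pathway genes related to Rnf17, 7 passed the filter and 8 had no read, including Piwil1, Mael and Mov10l1. Those of smallest p were Tdrd3 (log2 fold change -0.39 ± 0.34) and the mitochondrial piRNA factor Pld6 (-0.55 ± 0.49). Ddx4, the germ cell helicase Vasa, singled out after its values were seen, had 0, 19 and 3 reads in KO 1, the library labelled KO 2 and KO 3 and 12, 59 and 2 reads in f/f 1, 2 and 3, with f/f 2 the highest library, as for Dmrtb1 and Nebl. Among 11 genes of DM-domain and male germ cell factors related to Dmrtb1, 2 passed the filter, Dmrta2 (-0.96 ± 0.52) and Dmrt2 (-0.21 ± 0.49).

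Of 11 relatives and partners of Eya4, 6 passed the filter. Dach1, a co-repressor gene, was at 71.0 ± 20.7 CPM in Gata2 KO and 60.2 ± 8.45 CPM in Gata2 f/f (log2 fold change 0.24 ± 0.27, edgeR adjusted p = 1.00). Eya1, a paralogue of Eya4, was at 44.2 ± 3.46 CPM in Gata2 KO and 49.4 ± 6.34 CPM in Gata2 f/f. Dach2 was below the filter, with 0, 2 and 0 reads in Gata2 KO and 12, 10 and 7 reads in Gata2 f/f, and was singled out after its values were seen. Of the SKI and DACH domain relatives of Skida1, Ski had 0.35 ± 0.40 and Dach1 the value above.

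Of 9 genes of the EID family and its partners 8 passed the filter, led by the retinoblastoma gene Rb1 (-0.33 ± 0.26) and the acetyltransferase gene Crebbp (0.50 ± 0.41). Of 12 Nogo receptor relatives, ligands and co-receptors 7 passed, led by Mag, the myelin-associated glycoprotein gene (0.44 ± 0.26), and Rtn2 (0.69 ± 0.42). Rtn4r, the Nogo receptor itself, was at 1.90 ± 0.974 CPM in Gata2 KO and 3.31 ± 1.24 CPM in Gata2 f/f. Pirb, an inhibitory receptor of myeloid cells that also binds Nogo, was at 74.6, 32.0 and 216 CPM in KO 1, the library labelled KO 2 and KO 3 and at 9.41, 6.07 and 151 CPM in f/f 1, 2 and 3, so the libraries numbered 3 were highest in each genotype. It differed between numbers (edgeR F test, adjusted p = 0.0238) and did not pass edgeR's genotype test, but passed DESeq2 with the replicate number as a block (log2 fold change 1.96, adjusted p = 5.79e-05), which called 1.75% of the genes given an adjusted p.

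Of 15 prostanoid genes 10 passed the filter. Ptger4, which encodes the EP4 receptor, and Ptger2 (EP2) were tested, and Ptger1 was not. Those of smallest p were Ptges2, a prostaglandin E synthase gene (32.7 ± 6.13 CPM in Gata2 KO and 25.4 ± 2.22 CPM in Gata2 f/f, log2 fold change 0.36 ± 0.23), and Ptgs1, encoding cyclo-oxygenase 1 (0.49 ± 0.41). Of 11 nebulin family and Z-disc genes 9 passed, 8 with positive values. Nrap was at 8.31 ± 2.32 CPM in Gata2 KO and 4.61 ± 0.689 CPM in Gata2 f/f (0.85 ± 0.34, unadjusted p = 0.0373, adjusted p = 1.00 in edgeR), and Des, encoding desmin, had 0.36 ± 0.29. Nebl, at -1.81, was opposite in sign to both.

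**Figure D4:**
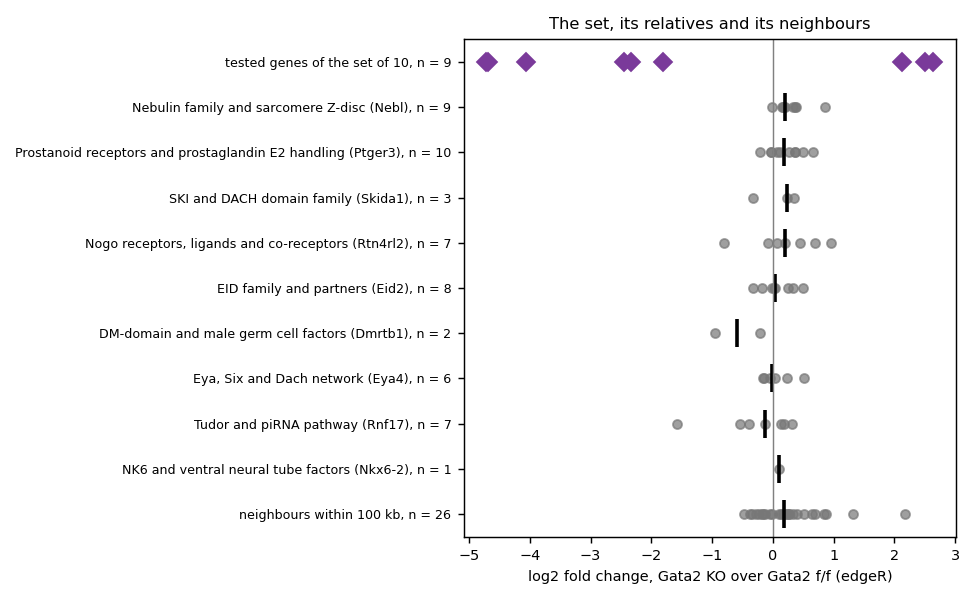
Log2 fold change, Gata2 KO over Gata2 f/f (edgeR), of the 9 tested genes of the set (diamonds), of tested genes in each list of relatives (dots; bars are medians) and of the 26 tested neighbours within 100 kb. The 9, which were chosen on this contrast, lie at -4.72 to -1.81 or 2.13 to 2.64. Relatives, which were not, lie within 1.58 of 0, but Ddx4 is at -4.01 without KO 2. The neighbours lie between -0.48 and 2.17, where the highest is Prg2, high in KO 2 alone and at -2.75 without that library.

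Genes most like the set in pattern were taken as those with the highest Pearson correlation, over the 6 libraries, with the mean standardised log2 level of the 4 higher or the 6 lower genes. Like the higher genes were Evi5l (r = 0.99), Prkcz (r = 0.99) and Apba3 (r = 0.97), and like the lower ones Gm6170 (r = 0.99), Casc4 (r = 0.99) and Zfp85 (r = 0.98). Both means follow the choice of genes, and all 6 points come from the same libraries. Prkcz, which encodes an atypical protein kinase C, was at 40.7, 20.4 and 43.3 CPM in KO 1, the library labelled KO 2 and KO 3 and at 12.8, 13.4 and 11.0 CPM in f/f 1, 2 and 3. Casc4 was at 0.478, 0.489 and 0.756 CPM in Gata2 KO and at 2.68, 2.81 and 1.23 CPM in Gata2 f/f.

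RefSeq promoter windows on GRCm38.p6, from 250 bases before to 50 bases after a start site, were found for 8 of the 10 genes, 13 windows in all. They were searched on both strands for the 4 spellings of the GATA motif. These are AGATAA and its variant ending in G, which is AGATAG, and the same with T in first place, thus TGATAA and, ending in G again, TGATAG. No matches in the windows of the 10 genes overlapped. A match lay in windows of 3 genes, Nkx6-2, Gm10451 and Nebl. That is 4 of 13 windows (30.8%), against 29.8% of the 32851 windows of all genes. An observed-to-expected CpG ratio over 0.6 was found in 9 of the 13 windows (69.2%), against 35.8% of all windows. The window of Gm10451 (0.34) and 3 of the 4 windows of Nebl were below it. Windows of 1 gene are not independent, and those of Eya4 overlap each other. By gene, 7 of the 8 had a window over 0.6, a count for which no share over all genes was taken. The ratio was 0.97 for Nkx6-2, 0.86 for Rtn4rl2 and 1.22 for Eid2. The 250 bases upstream of the start site are shown for the 2 genes of each direction with the widest gap between groups, 5′ to 3′ on the strand of the gene, with matches to the motif in capitals. The Nkx6-2 sequence (chr7:139582798-139583047, minus strand) holds matches at -205 and -34 from the start site, the one at -34 on the opposite strand. That of Gm10451 (chr12:76444247-76444496, plus strand) holds 1 at -208, on the opposite strand, with another at 39, beyond the bases shown. Those of Rtn4rl2 (chr2:84886693-84886942, minus strand) and Eid2 (chr7:28267631-28267880, plus strand) hold none and are rich in CpG.
Nkx6-2: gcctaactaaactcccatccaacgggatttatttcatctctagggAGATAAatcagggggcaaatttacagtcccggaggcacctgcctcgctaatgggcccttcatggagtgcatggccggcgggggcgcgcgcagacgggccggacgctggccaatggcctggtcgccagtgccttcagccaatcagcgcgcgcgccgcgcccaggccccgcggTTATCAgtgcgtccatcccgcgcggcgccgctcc
Rtn4rl2: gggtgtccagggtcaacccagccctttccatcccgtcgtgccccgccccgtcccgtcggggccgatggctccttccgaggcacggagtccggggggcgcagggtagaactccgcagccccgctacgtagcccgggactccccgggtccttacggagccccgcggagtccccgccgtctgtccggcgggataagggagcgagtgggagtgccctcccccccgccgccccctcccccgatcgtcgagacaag
Gm10451: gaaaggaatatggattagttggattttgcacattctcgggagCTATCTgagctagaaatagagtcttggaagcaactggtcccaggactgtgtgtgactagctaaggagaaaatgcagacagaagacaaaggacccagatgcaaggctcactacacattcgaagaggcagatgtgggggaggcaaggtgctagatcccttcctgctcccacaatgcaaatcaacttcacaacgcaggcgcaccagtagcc
Eid2: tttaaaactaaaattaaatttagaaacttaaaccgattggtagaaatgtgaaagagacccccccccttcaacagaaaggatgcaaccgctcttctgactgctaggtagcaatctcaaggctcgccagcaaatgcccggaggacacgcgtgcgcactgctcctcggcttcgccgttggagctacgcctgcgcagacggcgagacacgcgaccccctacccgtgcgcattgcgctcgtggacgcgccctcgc
A match to these letters is not evidence of binding, and their absence from a window says nothing of Gata2.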

How the data were processed

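Poly(A)-selected RNA of 6 Nutlin-treated MA9 leukaemia samples was sequenced as paired 90 bp reads with a NEBNext Ultra II kit, per the labels' protocols. The authors deposited 1 table of whole-number counts per Ensembl gene, not normalised. Tools named in the submitters' processing notes, without roles, are DESeq2, HTSeq and kallisto, and the build is mm10. The sources used here do not give the annotation or strand use, so reads of overlapping or near-identical genes can be shared or split. Of 49585 identifiers 49326 matched GENCODE M21 without the version, which gave symbols and coordinates, and rows without a match held 0.00962% of counts.

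Groups and numbers came from the titles. That the samples are separate cultures or animals is not stated beyond the design text's word independent, so p-values may reflect technical spread between samples. No pair of libraries was a duplicate (chi-square per degree of freedom at least 35.5). Genes kept by edgeR's filterByExpr (minimum count 10) were scaled by TMM and tested with edgeR's quasi-likelihood test with no block (Benjamini-Hochberg adjusted p under 0.05). Replicate numbers were tested by an F test with genotype in the model. Deviations from the group means correlated between libraries of equal number at 0.29, 0.55 and 0.65. Between unequal numbers the correlations ran from -0.64 (KO 2 with f/f 3) to 0.46 (KO 2 with f/f 1). They were negative for every such pair that held KO 3 or f/f 3. The labels do not say what the number stands for, so the replicate block was kept as an alternative. Standard errors of genotype fold changes are those without it. The biological coefficient of variation in edgeR was 0.43 without the block and 0.26 with it. CPM levels use the TMM-scaled size. Alternatives were other scalings, filters and tools, the replicate block and leaving out each library. Scripts were tested on simulated data. DESeq2 1.42.0, limma 3.58.1 and edgeR 4.0.16 ran in R 4.3.3.

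The 10 genes and all lists were chosen with earlier results of these data known. Named beside them are the 2 tested relatives of smallest p per list, tested neighbours within 100 kb, the 3 genes most like each pattern, and Gata2. One relative that this rule names is not reported here.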

Additional observations from a re-analysis of the deposited data

How the results depend on the processing

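No log2 fold change of the 10 genes changed sign or moved by more than its standard deviation within groups under any alternative that gave a value. Genes called between genotypes numbered 0 with every edgeR setting, with limma voom and without each library in turn (0 to 0), with the replicate block in edgeR 0 as well, but 7 with DESeq2 and 222 with DESeq2 and the replicate block. That fit called 1 relative or neighbour (Pirb), against 0 otherwise and 0 without KO 2, added after the data were seen. The log2 fold change of the neighbour Prg2 reversed without KO 2, being -2.75, against 2.17 with all libraries. Genes with groups apart numbered 745, 1221 with no filter, and 1203 to 4094 without each library in turn, where fewer libraries have to separate. They numbered 759 with CPM over the library total (261 higher) and 619 with raw counts (109 higher), against 363 higher on the TMM scale. Genes called between numbers were 1249, but 2348 with no filter and 2870 with DESeq2, and 757 without KO 3 to 3460 without f/f 3, alternatives added after the data were seen that leave 1 residual degree of freedom. The median place of KO 2 was 0.75, and 0.70 to 0.75 under the alternatives. Single genes moved more, as Nebl from -0.0028 to 0.33 and Nkx6-2 from 0.70 to 0.45 on linear CPM. The log2 fold change of Nebl ran from -3.62 without KO 2 to -1.19 without f/f 2, and with the replicate block it was -2.45. The cause of each difference was not tested. Depth limits the low group of most genes, where 16 values were of under 10 reads.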
